A study of Danio rerio with 1109 samples.

Results

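The cells described here are trunk cells of the zebrafish embryo that expressed tnmd, the gene of tenomodulin. They were chosen by raw read counts alone: a cell was taken as tnmd-positive when it had at least 20 counts of tnmd and fewer than 20 of en1a, the engrailed gene that marks fibroblasts of the horizontal myoseptum. This rule found 54 cells, 4.87% of all cells of the series (exact Clopper-Pearson 95% interval 3.68 to 6.31%; all intervals of shares cover counting error only). They were set beside 602 other fibroblasts, which had at least 20 counts of pdgfra or of lum and fewer than 20 of tnmd, and beside those of the 602 that also had at least 20 counts of en1a, the en1a-positive fibroblasts, which were 15.2% of all cells of the series.

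The cells came from embryo trunks at 48 hpf (hours post fertilization), partly dissociated with trypsin, sorted singly by FACS into 384-well plates, and sequenced with the full-length Smart-seq2 method. The study was designed to find the cells that supply Vegfc and its processing factors during lymphangiogenesis. A single plate, here the pdgfra plate, held cells of the line pdgfra:mCit, whose reporter is driven by a pdgfra transgene and which was sorted for a broad fibroblast population. A pair of plates, vegfc plate 1 and vegfc plate 2, of about the same number of cells each, came from the line vegfc:Gal4FF;UASGFP; kdrl:mCherry, in which a vegfc transgene drives GFP and the kdrl promoter marks endothelial cells. Cells of the vegfc line were sorted either as GFP-positive without mCherry or as mCherry-positive without GFP, so a reporter chose them. Which of these sorts a cell came from was not used here. None of the groups carried a mutation or received a treatment. Trunks of many embryos were pooled and no animal or pool is named, so the plate is the unit of replication, p-values measure only the spread between plates, and the pdgfra line cannot be told apart from its plate. Gene counts per cell ranged from 50045 to 782140 with a median of 298220, over 2785 to 9907 detected genes.

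Tenomodulin is a transmembrane glycoprotein of tendon and ligament cells, known in the mouse for its part in collagen fibril maturation. Tendon cells of the trunk arise from the sclerotome and attach muscle to the myosepta, the collagen sheets between the segments. Their best known regulator is the bHLH factor Scleraxis, and their matrix combines collagen I fibrils with collagen XII, tenascins, thrombospondin 4 and small proteoglycans. The gene names below are those of the count table, which gives many zebrafish genes the capital symbol of the human ortholog, so that tnmd stands there as TNMD. Where several zebrafish genes share a symbol, the Ensembl identifier follows it.

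The tnmd-positive cells were unevenly spread over the plates. The pdgfra plate held 42 of them, 11.5% of its cells (8.42 to 15.2%). In vegfc plate 1 there were 8, or 2.18% (0.946 to 4.25%), and in vegfc plate 2 there were 4, or 1.06% (0.290 to 2.69%). The pdgfra plate therefore supplied 77.8% of all tnmd-positive cells, and shares given over all 54 cells weight that plate most. Their tnmd counts ran from 21 to 1142. Given as CPM, in which every cell's counts are scaled to the same total, TNMD ran from 62.7 to 2282 CPM with a median of 575 CPM. The 5 cells just above the threshold had 21, 26, 32, 35 and 35 counts, and the 5 just below it had 18, 13, 13, 10 and 8. Few cells lay near the threshold: 618 cells of the series had no count of tnmd, 436 had 1 to 19, and only 4 of these had 10 or more. A further cell of the pdgfra plate with 413 counts of tnmd was left out by the en1a rule, and 8 of the 54 had 10 to 19 counts of en1a.

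Most tnmd-positive cells were fibroblasts by the same genes that chose the comparison cells. The receptor gene pdgfra reached 20 counts in 44 of them, the proteoglycan gene lum in 26, and either gene in 49. Collagen I was nearly universal, since col1a1a and COL1A2 each reached 20 counts in 53 of the 54 cells. The median sequencing depth was 277724 counts in tnmd-positive cells and 289912 counts in other fibroblasts, so the classes were of similar depth over all plates. Within plates the medians were 260746, 353984 and 388111 counts in tnmd-positive cells, against 295882, 278241 and 303622 counts in other fibroblasts. The reporter sequence counted as eGFP had medians of 22, 46 and 7.5 counts in tnmd-positive cells of the pdgfra plate, vegfc plate 1 and vegfc plate 2, against 69, 83 and 25 counts in other fibroblasts. At least 20 counts of mki67 or top2a, genes of dividing cells, were present in 7 tnmd-positive cells (13%) and in 25.2% of other fibroblasts.

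The working name of these cells, tendon-like fibroblasts, rests on tnmd and 5 further genes, mab21l2, ccl25b, cndp1, slco2b1 and mmp11b. These genes were picked with results of these data known, so their values are a description and no p-value is given for them. Over the summed cells of a plate, TNMD itself had 906, 342.97 and 297.1 CPM in tnmd-positive cells of the pdgfra plate, vegfc plate 1 and vegfc plate 2, against 6.05, 1.46 and 1.62 CPM in other fibroblasts, a difference that the rule fixes. The most regular companion was mab21l2, a nuclear protein gene of eye and body wall development, with 726, 241.2 and 338.8 CPM in tnmd-positive cells and 127.5, 67.5 and 111.1 CPM in other fibroblasts. It reached 20 counts in 37 of the 54 cells (68.5%, 54.4 to 80.5%), against 18.3% of other fibroblasts, and was higher in tnmd-positive cells of every plate. The chemokine gene ccl25b differed between plates. It stood at 549 CPM in tnmd-positive cells of the pdgfra plate against 49.5 CPM in other fibroblasts there, but at 151.2 and 396 CPM in tnmd-positive cells of the vegfc plates against 177.5 and 235.4 CPM, so that the order turned round in vegfc plate 1, and in vegfc plate 2 nearly all of it came from 1 cell.

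The other label genes were present in a minority of the cells. The dipeptidase gene cndp1 reached 20 counts in 13 tnmd-positive cells (24.1%, 13.5 to 37.6%) and in 2.33% of other fibroblasts, but 12 of these 13 cells were in the pdgfra plate and none in vegfc plate 1, where the tnmd-positive cells had 0 CPM and other fibroblasts 1.73 CPM. The organic anion transporter gene slco2b1 reached 20 counts in 7 tnmd-positive cells and in 3.82% of other fibroblasts. The stromelysin gene mmp11b did so in 11 tnmd-positive cells and in 5.65% of other fibroblasts, at 90.1, 68.7 and 64.2 CPM in tnmd-positive cells and 16.3, 13.3 and 36.7 CPM in other fibroblasts, and in each vegfc plate these counts came from 1 tnmd-positive cell. Counted together, 13 tnmd-positive cells had none of the 5 genes at 20 counts, 15 had 1, 10 had 2, 13 had 3, 2 had 4 and 1 had all 5. Among other fibroblasts 399 had none, 46 had 2, 12 had 3, 4 had 4 and the rest had 1. When every cell was thinned to 50000 counts and 2 counts were required, mab21l2 remained in 68.5% of tnmd-positive cells and 21.6% of other fibroblasts, and cndp1 in 24.1% and 2.66%. These thinned shares are pooled over the plates, and the pdgfra plate held 42 of the 54 tnmd-positive cells. The part of depth was not tested.

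**Figure D1:**
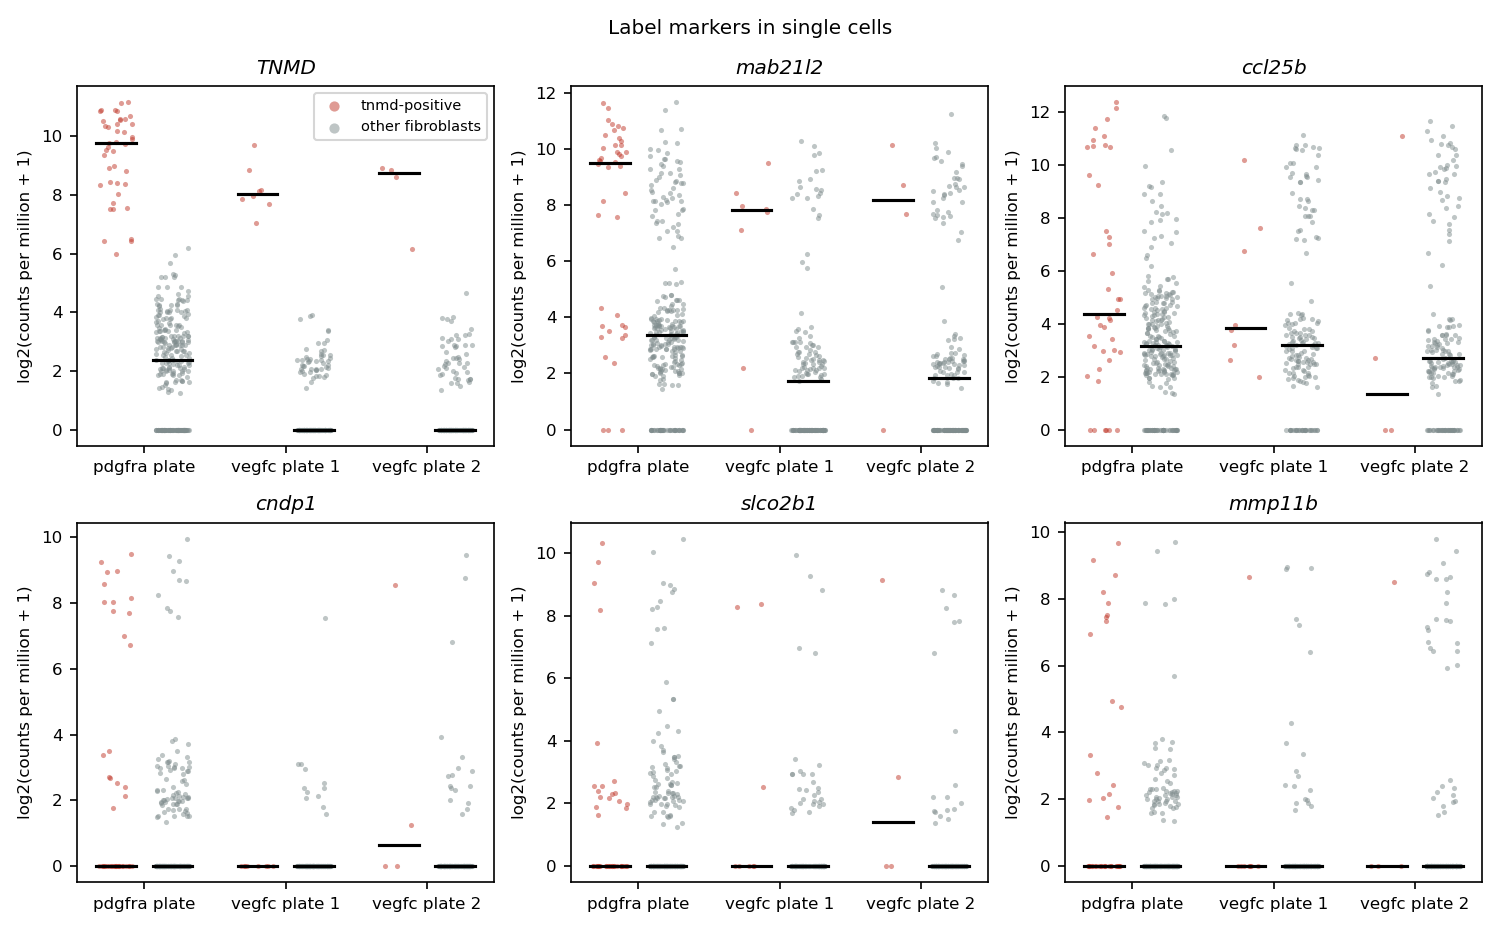
Each panel plots 1 label gene in single cells, as log2(CPM + 1), for tnmd-positive cells and other fibroblasts of the 3 plates; each point is a cell. TNMD separates the classes because it chose them, mab21l2 is high in 37 of the 54 tnmd-positive cells, and cndp1 is at 20 counts or more in none of the 8 tnmd-positive cells of vegfc plate 1.

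The name was then checked against genes that define tendon cells. Scleraxis, given as SCX, went against it: at least 20 counts were found in 7 of the 54 cells (13%, 5.37 to 24.9%) and in 77 of the other fibroblasts (12.8%, 10.2 to 15.7%). All 7 were in the pdgfra plate. The level of SCX was 242.9, 1.11 and 0 CPM in tnmd-positive cells of the pdgfra plate, vegfc plate 1 and vegfc plate 2, against 111.7, 59.6 and 21 CPM in other fibroblasts, so the tnmd-positive cells were above the others in the pdgfra plate and below them in both vegfc plates. Its paralog scxb reached 20 counts in none of the 54 cells, which allows a share of up to 5.56%, and in 3.82% of other fibroblasts. Mohawk, a homeobox regulator of tendon given as MKX (ENSDARG00000075450), did so in 3 tnmd-positive cells and in 2.99% of other fibroblasts. The early growth response gene egr1 was common in both, at 77.8% of tnmd-positive cells and 69.9% of other fibroblasts. The Scleraxis counts thus did not bear out the name tendon-like, for which tnmd itself is no evidence because it chose the cells, and the cells are called tnmd-positive in what follows.

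SCX and mab21l2 were not found together within the tnmd-positive cells. None of the 7 SCX-positive cells reached 20 counts of any of the 5 label genes, their mab21l2 counts lying between 0 and 5. The split by SCX was made after its values had been seen and is described without a test. The SCX-positive cells had 84.9, 732, 1131, 1461, 1547, 1842 and 1895 CPM of TNMD, with a median of 1461 CPM against 482 CPM in the 47 SCX-negative cells. Pooled, their TNMD level was 1108 CPM, against 868 CPM in the 35 SCX-negative cells of the same plate and 324.4 CPM in the 12 tnmd-positive cells of the vegfc plates. High tnmd was thus not restricted to SCX-positive cells, as the highest count of all, 1142, belonged to an SCX-negative cell.

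**Figure D2:**
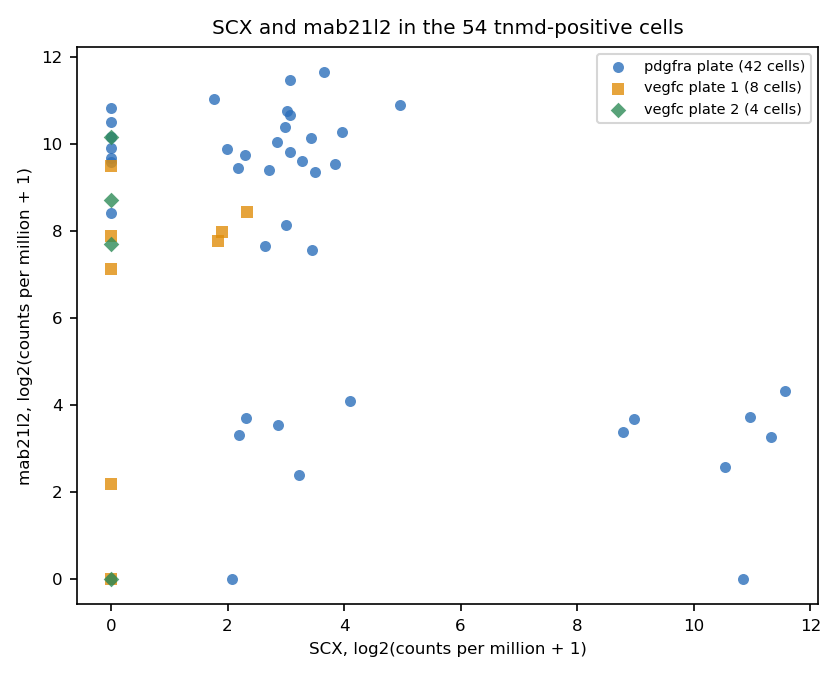
SCX (x axis) against mab21l2 (y axis) in the 54 tnmd-positive cells, both as log2(CPM + 1), with 1 point per cell and the plate shown by marker. The 7 cells with high SCX all come from the pdgfra plate and lie at low mab21l2.

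Several matrix genes stood higher in the SCX-positive cells than in the remaining cells. PRELP, a small leucine-rich proteoglycan that binds collagen, reached 20 counts in 7 of 7 SCX-positive cells and in 3 of 47 SCX-negative cells, at 1927 and 30.0 CPM. CILP, a matrix protein of cartilage and tendon, stood at 3892 CPM in SCX-positive and 327.1 CPM in SCX-negative cells, and thbs4b, a thrombospondin 4 gene of the myotendinous junction, at 1681 and 218.8 CPM. The membrane-anchored metalloprotease gene mmp17b was at 20 counts in 5 of 7 SCX-positive cells and in none of 47 SCX-negative cells (626 and 2.06 CPM). The Wnt receptor gene FZD8 (ENSDARG00000045444) was found in 7 of 7 and 3 of 47, the secreted Wnt antagonist gene SFRP5 in 6 of 7 and 2 of 47, the ligand gene FGF8 (ENSDARG00000039615) in 5 of 7 and none of 47, and meox1, a homeobox gene of the sclerotome and dermomyotome, in 7 of 7 and 9 of 47. MATN4 was shared by both kinds of cell, with 5571 CPM in the SCX-positive cells.

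SCX-negative tnmd-positive cells instead expressed mesenchymal regulators that reached 20 counts in at most 1 of the 7 SCX-positive cells. All 7 were of the pdgfra plate, whereas the 47 SCX-negative cells pool 35 of that plate with 12 of the vegfc plates. The homeobox genes PRRX1 (ENSDARG00000033971) and PRRX1 (ENSDARG00000042027) reached 20 counts in 38 and 34 of the 47 SCX-negative cells and in none of the 7 SCX-positive cells. The bHLH gene twist1b was found in 33 of 47 and none of 7, the fibroblast growth factor receptor gene FGFR2 in 37 of 47 and none of 7, and BMP7 in 30 of 47 and none of 7. The zinc finger gene zic1 was found in 36 of 47 and 1 of 7. These genes were also present in other fibroblasts, at 41.9% and 24.8% for the PRRX1 genes in the same order and 47.5% for twist1b. There FGFR2 reached 20 counts in 39.9% of cells, BMP7 in 18.6% and zic1 in 17.9%. The same 7 cells also differed from 47 fibroblasts of the pdgfra plate that had SCX but not tnmd. PRELP was at 20 counts in 100% of the 7 and 31.9% of the 47, the chondromodulin gene cnmd, the closest relative of tnmd, in 85.7% and 17%, SFRP5 in 85.7% and 21.3%, and FZD8 (ENSDARG00000045444) in 100% and 19.1%. CILP and meox1 were common to both, at 100% and 87.2% for CILP and 100% and 93.6% for meox1.

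**Figure D3:**
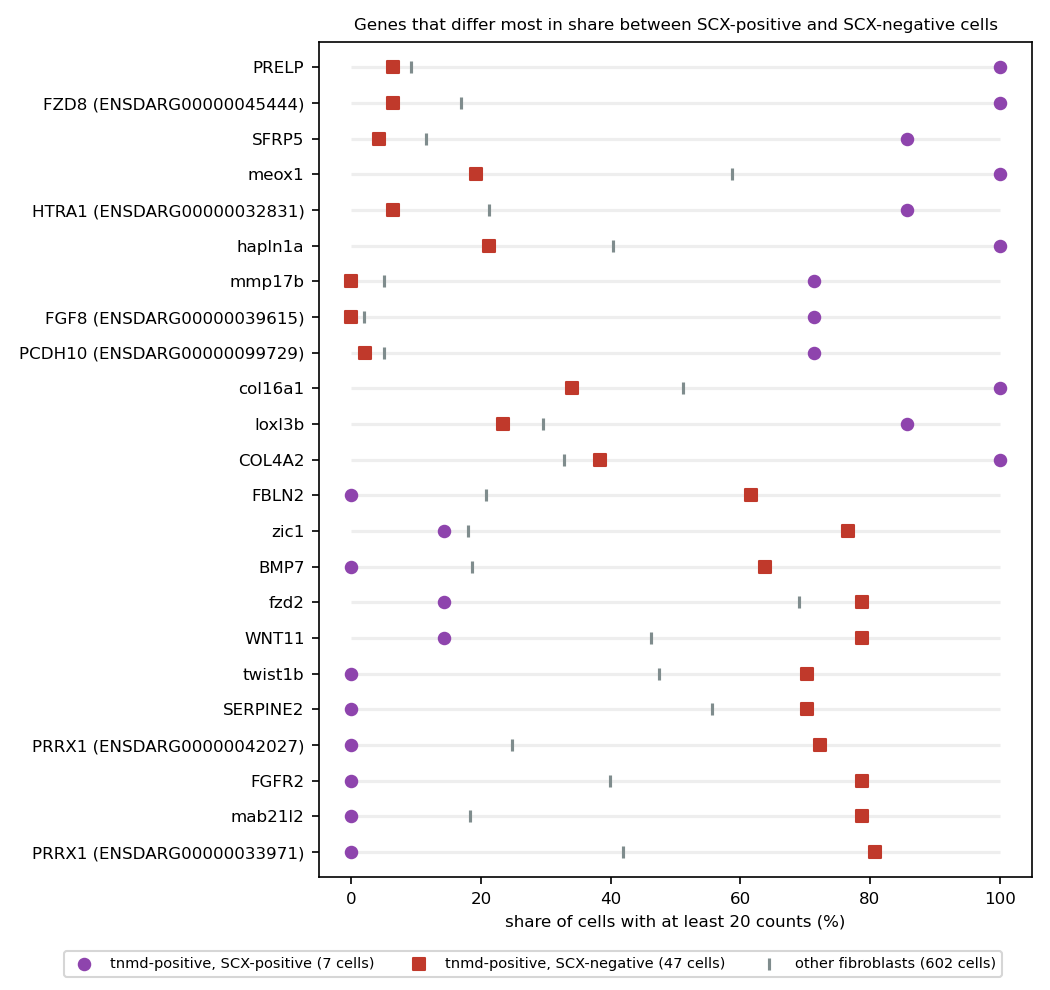
Share of cells with at least 20 counts (x axis, percent) of the genes that differ most between the 7 SCX-positive and the 47 SCX-negative tnmd-positive cells, with other fibroblasts (602 cells) as vertical ticks. PRELP and FZD8 (ENSDARG00000045444) were in all 7 SCX-positive cells, and mab21l2 and both PRRX1 genes in none of them.

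In genes that the rule had not used, the tnmd-positive cells had many tnmd-positive cells among their neighbours. Among the 15 nearest neighbours of a tnmd-positive cell, computed from 3000 variable genes without the gate genes and label genes, 32.6% on average were themselves tnmd-positive (median 33.3%, lowest 0%, highest 66.7%), beside 4.87% of all cells. By plate the mean was 37.6% in the pdgfra plate, 13.3% in vegfc plate 1 and 18.3% in vegfc plate 2. Neighbours were drawn from all plates, and 89.7%, 33.3% and 36.7% of them came from the cell's own plate. In the plates that supplied these neighbours, weighted by how many each supplied, 10.5%, 3.7% and 4.1% of all cells were tnmd-positive. Without centring the levels per plate, the mean in vegfc plate 1 was 6.67%, beside 2.49% in the plates of those neighbours. Other fibroblasts made up 61.1% of the neighbours, so the cells did not form a closed group, and 5 of the 54 had no tnmd-positive neighbour. For the 7 SCX-positive cells, 88.6% of the neighbours were SCX-positive and 26.7% tnmd-positive, whereas for the SCX-negative cells 0.851% were SCX-positive and 33.5% tnmd-positive. SCX was not among the genes left out of the search, so its shares are a description and not independent evidence. At least 20 counts of SCX were present in 60, 27 and 21 cells of the pdgfra plate, vegfc plate 1 and vegfc plate 2.

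Which genes outside the rule set the tnmd-positive cells apart from other fibroblasts was tested on counts summed per plate, in the 2 plates with at least 5 tnmd-positive cells, with the plate as a block (edgeR quasi-likelihood test, Benjamini-Hochberg adjustment over all genes). The fit had 4 sums and 1 residual degree of freedom, so that the spread of a gene was set largely by edgeR's estimate shared across genes, and small adjusted p-values rest on that estimate more than on replicates of the gene. Of 17597 genes tested, 38 were higher (0.216%) and 57 lower (0.324%) at an adjusted p below 0.05, together 0.54%. The count depended on which cells stood for each class. Leaving the en1a-positive cells out of the comparison gave 19 higher (0.114%) and 17 lower genes (0.102%), together 0.216%, of which 18 and 17 were among the first set. Adding vegfc plate 2 with its 4 cells gave 6 higher (0.0347%) and 8 lower (0.0463%), together 0.0811%, all among the first set. The deepest of those 4 cells, at 719948 counts, had only 27.8 CPM of COL1A2. limma on the mean log2 level per cell called 35 higher genes (0.199%), 24 of them shared, but only 2 lower (0.0114%), meox1 and FABP3, together 0.21%. DESeq2 called 0.784% of the genes, 30 of them higher and the rest lower. Only 5 of its higher and 27 of its lower genes were among the first set, and these 27 were a minority of its lower genes. MATN4, tnn, CA6 and zic1 were not called by it (DESeq2 adjusted p from 0.107 to 0.652). Without the plate block edgeR called none, with 1171 genes at an unadjusted p below 0.05. The raised genes were carried by many cells, at a median of 55.6% of tnmd-positive cells and 21.7% of other fibroblasts, and 25 of the 38 were also higher in vegfc plate 2. The lowered genes were mostly low everywhere in the tnmd-positive class, at a median of 5.56% of tnmd-positive cells and 28.1% of other fibroblasts. Of these 57, 30 were at 20 counts in none of the 8 cells of vegfc plate 1, and 54 were also lower in vegfc plate 2. All 38 and all 57 kept their sign in each of these other fits. Over all tested genes the median log2 fold change was -0.39, which is the level to read other medians against.

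Matrix genes were among the differences with the smallest edgeR adjusted p-values. MATN4, a matrilin that links matrix filaments, had 4214, 5383 and 2247 CPM in tnmd-positive cells of the pdgfra plate, vegfc plate 1 and vegfc plate 2, against 1148, 1973 and 1294 CPM in other fibroblasts, and was at 20 counts in 51 of 54 cells. Its log2 fold change was 1.83 ± 0.22 (SE, edgeR adjusted p = 1.99e-13). Tenascin N, given as tnn, had 7613, 5148 and 2630.1 CPM in tnmd-positive cells, against 3444, 2965 and 1658 CPM in other fibroblasts, with a log2 fold change of 1.14 ± 0.19 (edgeR adjusted p = 4.91e-06). Both were already abundant in other fibroblasts and higher in tnmd-positive cells of every plate. These 2 genes also held without the en1a-positive cells, with limma and over 3 plates (adjusted p at most 0.0257), but DESeq2 called neither.

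Collagen XII, which coats collagen I fibrils, was higher through both of its genes. COL12A1 (ENSDARG00000078322) had 857, 1246 and 567 CPM in tnmd-positive cells, against 215.2, 355.4 and 519 CPM in other fibroblasts (log2 fold change 2.07 ± 0.31, edgeR adjusted p = 4.74e-08). COL12A1 (ENSDARG00000019601) had 809, 1342 and 752 CPM, against 336.9, 390.2 and 532 CPM (1.69 ± 0.30, edgeR adjusted p = 1.86e-05). The difference was small in vegfc plate 2 for both, and neither passed over 3 plates (adjusted p = 0.438 and 0.121). Fibulin 2, FBLN2, which bridges basement membrane and elastic fibres, had 287.3, 279.8 and 193.3 CPM, against 80.4, 85 and 84 CPM (1.95 ± 0.46, edgeR adjusted p = 0.00704). TNC (ENSDARG00000021948), a tenascin C gene, passed in the 2 plates (1.19 ± 0.30, edgeR adjusted p = 0.0191) with 693 and 1181 CPM against 255.8 and 779 CPM, but in vegfc plate 2 it was lower, at 353.1 CPM against 602 CPM. Without the en1a-positive cells neither FBLN2 nor TNC (ENSDARG00000021948) passed (edgeR adjusted p = 0.126 and 0.238), nor did they over 3 plates (adjusted p = 0.257 and 0.857). Of the 29 tendon matrix genes tested, a list without collagen XII, 4 were higher and 2 lower, beside 0.216% and 0.324% of all genes. The 4 were MATN4, tnn, FBLN2 and TNC (ENSDARG00000021948). The list had a median log2 fold change of -0.08 beside -0.39 over all genes. All gene lists were chosen with earlier results of these data known, so counts by list are a description.

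The lower pair were thrombospondins. The gene thbs4b had 470.2, 284.3 and 3.29 CPM in tnmd-positive cells, against 958, 1147 and 548 CPM in other fibroblasts (-1.35 ± 0.31, edgeR adjusted p = 0.00385), and THBS1 had 166.7, 468 and 514 CPM, against 601, 985 and 738 CPM (-1.29 ± 0.33, edgeR adjusted p = 0.021). Without the en1a-positive cells, which had the most of both, neither passed (edgeR adjusted p = 0.536 each). After thinning, 2 counts of thbs4b were found in 75.9% of tnmd-positive cells and 75.1% of other fibroblasts. For THBS1 these shares were 51.9% and 70.6%. Within the tnmd-positive class thbs4b was high in the SCX-positive cells, as described above. A further member of the family, THBS3 (ENSDARG00000012060), which stood in none of the gene lists, was higher with 222.3, 272.4 and 169.1 CPM, against 26.7, 69.1 and 100.9 CPM (2.69 ± 0.52, edgeR adjusted p = 1.72e-04).

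The collagens and proteoglycans that make up the bulk of the fibroblast matrix did not pass the test. COL1A2 had 8432, 10618 and 3715 CPM in tnmd-positive cells and 9942, 8906 and 4794 CPM in other fibroblasts. Decorin, given as dcn, had 2673, 1929.6 and 935 CPM in tnmd-positive cells and 2336, 1550.4 and 1321 CPM in other fibroblasts, and fibromodulin a, fmoda, had 2054, 2288 and 1026 CPM in tnmd-positive cells and 2754, 1374 and 1115 CPM in other fibroblasts. The 4 tnmd-positive cells of vegfc plate 2 had 27.8, 34.4, 8784 and 9943 CPM of COL1A2. The first of them had 2 counts of dcn and 5 of MATN4. It was the deepest, at 719948 counts, and so weighed most in every summed level of that plate. Its part in these levels and in the fits over 3 plates was not tested. None of 12 small leucine-rich proteoglycan genes tested was called, and 1 of 15 fibrillar collagen genes was, COL11A1, which was lower. Among 16 tendon regulators none was called in either direction, with a median of -1.01. The homeobox gene six1b and TGFBI, the gene of a secreted protein induced by TGF-beta, had log2 fold changes of 0.92 ± 0.50 and 0.65 ± 0.22 (edgeR adjusted p = 0.66 and 0.339). Both lay on the raised side of a list whose median was below the -0.39 of all genes, so they do not stand for the list.

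Among 52 regulators of sclerotome and mesenchyme, 4 were higher and 2 lower, beside 0.216% and 0.324% of all genes. Their median was -0.42, and 1 of the 4 was the label gene mab21l2. The zinc finger genes zic1 and zic4 lie side by side in vertebrate genomes and mark dorsal somite derivatives in medaka. zic1 had 925, 571 and 137.8 CPM in tnmd-positive cells, against 315.01, 44.1 and 49 CPM in other fibroblasts, and was at 20 counts in 37 of the 54 cells (68.5%) and in 17.9% of other fibroblasts. Its log2 fold change was 2.79 ± 0.37 (edgeR adjusted p = 2.15e-10). zic4 had 253.99, 185.8 and 181.7 CPM, against 84.5, 20.7 and 34.5 CPM (2.54 ± 0.55, edgeR adjusted p = 0.00139). Both were higher in every plate, and both lost the call over 3 plates (adjusted p = 0.157 and 0.113). mab21l2 and zic1 were largely in the same cells: each reached 20 counts in 37 tnmd-positive cells, and 32 cells had both. PRRX1 (ENSDARG00000042027) was higher with 704, 372.7 and 302.5 CPM, against 216.5, 115.9 and 190.6 CPM (1.86 ± 0.38, edgeR adjusted p = 4.06e-04), and did not pass without the en1a-positive cells (adjusted p = 0.0616).

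Secreted regulators of growth factor signalling were higher in small number. FSTL3, a follistatin-like protein that binds activins and myostatin, had 313.9, 256.8 and 204.8 CPM in tnmd-positive cells, against 56.6, 28 and 28.3 CPM in other fibroblasts, and was at 20 counts in 24 cells (44.4%, 30.9 to 58.6%) and in 6.48% of other fibroblasts. Its log2 fold change was 3.004 ± 0.50 (edgeR adjusted p = 2.40e-06), and it also passed without the en1a-positive cells, with limma, over 3 plates and with DESeq2. BMP7, a bone morphogenetic protein ligand, had 399.7, 302.8 and 216.3 CPM, against 93.9, 116.3 and 124.6 CPM (1.91 ± 0.43, edgeR adjusted p = 0.00353). WNT11, a ligand of non-canonical Wnt signalling, had 1663, 491 and 876 CPM, against 557, 288.5 and 444 CPM (1.34 ± 0.30, edgeR adjusted p = 0.00256). The receptor-like gene fgfrl1b, whose product lacks a kinase domain, had 366.9 and 849 CPM, against 170.5 and 254.7 CPM, but 185.6 CPM against 190.4 CPM in vegfc plate 2. Without the en1a-positive cells BMP7 and fgfrl1b no longer passed (edgeR adjusted p = 0.152 and 0.297). By list, 1 of 37 TGF-beta, 1 of 37 BMP, 1 of 28 FGF and 1 of 46 Wnt genes were higher. In these lists 1 TGF-beta gene (fsta, follistatin a) and 1 BMP gene (grem2b, the BMP antagonist gremlin 2) were lower. Over all genes 0.216% were higher and 0.324% lower.

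Genes outside the lists included several with smaller edgeR adjusted p-values than most list genes. CA6, a carbonic anhydrase with a secretion signal, had 2083, 2491 and 1362 CPM in tnmd-positive cells, against 468, 880.0 and 780.0 CPM in other fibroblasts, and was at 20 counts in 48 of 54 cells (88.9%) and in 45.3% of other fibroblasts (1.999 ± 0.26, edgeR adjusted p = 4.18e-11). PTX3 (ENSDARG00000068275), a soluble pentraxin, had 1297, 659 and 393 CPM, against 557, 174.03 and 145.7 CPM (1.74 ± 0.31, edgeR adjusted p = 1.60e-05). Both also passed without the en1a-positive cells, with limma and over 3 plates, but DESeq2 did not call CA6. TFPI, an inhibitor of the tissue factor pathway of coagulation, had 153.6, 386 and 166.4 CPM, against 48.6, 26.6 and 44.9 CPM, and was at 20 counts in 26 cells and in 10.96% of other fibroblasts (2.93 ± 0.54, edgeR adjusted p = 3.38e-05). From the list of integrins and adhesion genes, CDH11, the cadherin of mesenchymal cells, had 705, 1002 and 632 CPM, against 161.3, 448 and 486 CPM (1.82 ± 0.33, edgeR adjusted p = 2.15e-05).

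The largest fold changes came from genes in few cells. HSPA12B, a distant Hsp70 relative, had a log2 fold change of 4.60 ± 0.93 from 8 tnmd-positive cells and 1.495% of other fibroblasts, and TBX2 (ENSDARG00000006120), a T-box repressor, 3.66 ± 0.90 from 9 cells and 2.66%. In vegfc plate 2 both were lower than in other fibroblasts, HSPA12B at 0 against 12.1 CPM and TBX2 (ENSDARG00000006120) at 0.549 against 25.4 CPM. RCAN2, a calcineurin regulator, and hpca, a calcium sensor, had log2 fold changes of 3.21 ± 0.87 and 3.12 ± 0.67, from 14 and 11 tnmd-positive cells. P3H2, a prolyl hydroxylase acting on collagen, ADM (ENSDARG00000015263), which encodes the peptide adrenomedullin, and emilin1b, an elastic fibre glycoprotein, lay between 1.64 and 2.14. The transcription factor gene aff3, OLFML3 (ENSDARG00000061852) and tmem59l lay between 2.18 and 2.26. Without the en1a-positive cells HSPA12B, hpca and aff3 still passed (edgeR adjusted p at most 0.0458), and TBX2 (ENSDARG00000006120), RCAN2, P3H2, ADM (ENSDARG00000015263), emilin1b, OLFML3 (ENSDARG00000061852) and tmem59l did not (adjusted p from 0.0805 to 0.28). The raised gene cpn1 (ENSDARG00000096728), a carboxypeptidase N gene with a log2 fold change of 1.26 ± 0.34, did not pass without the en1a-positive cells (adjusted p = 0.54). It has counts nearly identical to those of a second carboxypeptidase N gene and is uncertain, as reads could be split between them.

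The lowered genes fell into those that passed only while en1a-positive fibroblasts were among the comparison cells and those that passed without them too. In the first kind were ndnfl (-5.05 ± 0.67), the integrin-like gene itgbl1 (-4.67 ± 0.57), en1b (-4.27 ± 0.49), the Hedgehog-binding gene HHIP (-2.79 ± 0.46), and LAMB2 (-2.85 ± 0.77), a laminin chain. None of these 5 passed once the en1a-positive cells were left out (edgeR adjusted p between 0.536 and 1). The list of horizontal myoseptum genes accordingly had 4 of 10 lower, with a median of -3.56, and none lower without those cells. That list was chosen by the study on these cells and is not independent evidence.

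The second kind also passed without the en1a-positive cells. HAND2, a bHLH factor of lateral plate mesoderm, had 0.0879, 3.72 and 1.1 CPM in tnmd-positive cells, against 6.28, 138.7 and 193.7 CPM in other fibroblasts, and was at 20 counts in none of the 54 cells, which allows a share of up to 5.56%, and in 11.1% of other fibroblasts (-5.39 ± 1.35, edgeR adjusted p = 0.0171). COL11A1, a chain of the fibrillar collagen XI, had 11.7, 15.2 and 36.2 CPM, against 150.1, 266.4 and 136.7 CPM (-3.73 ± 0.64, edgeR adjusted p = 6.64e-06). CRABP1 (ENSDARG00000035904), which binds retinoic acid, and RDH10 (ENSDARG00000058730), which makes its precursor, had log2 fold changes of -4.09 ± 0.74 and -2.27 ± 0.44. The muscle precursor gene myf5 was at 20 counts in none of the 54 cells and in 10.96% of other fibroblasts (-3.91 ± 0.82). At low counts the order was the other way, as 2 counts of myf5 after thinning were found in 25.9% of them and in 17.4% of other fibroblasts. The prostaglandin synthase gene PTGS2 (ENSDARG00000004539), ntn1b, which encodes a netrin, and dact1, a Wnt modulator, lay between -4.91 and -4.46. grem2b and fsta had -2.98 ± 0.64 and -2.14 ± 0.45, and after thinning 2 counts of fsta were found in 44.4% of tnmd-positive cells and 37.2% of other fibroblasts. With limma on mean log2 levels none of these genes was called (adjusted p from 0.0971 to 0.895), whereas meox1 was, at 318.8, 171.3 and 54.9 CPM in tnmd-positive cells against 787, 748 and 419 CPM in other fibroblasts (edgeR -1.54 ± 0.34, limma adjusted p = 0.0166). By edgeR, however, meox1 belonged to the first kind, as it did not pass without the en1a-positive cells.

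**Figure D4:**
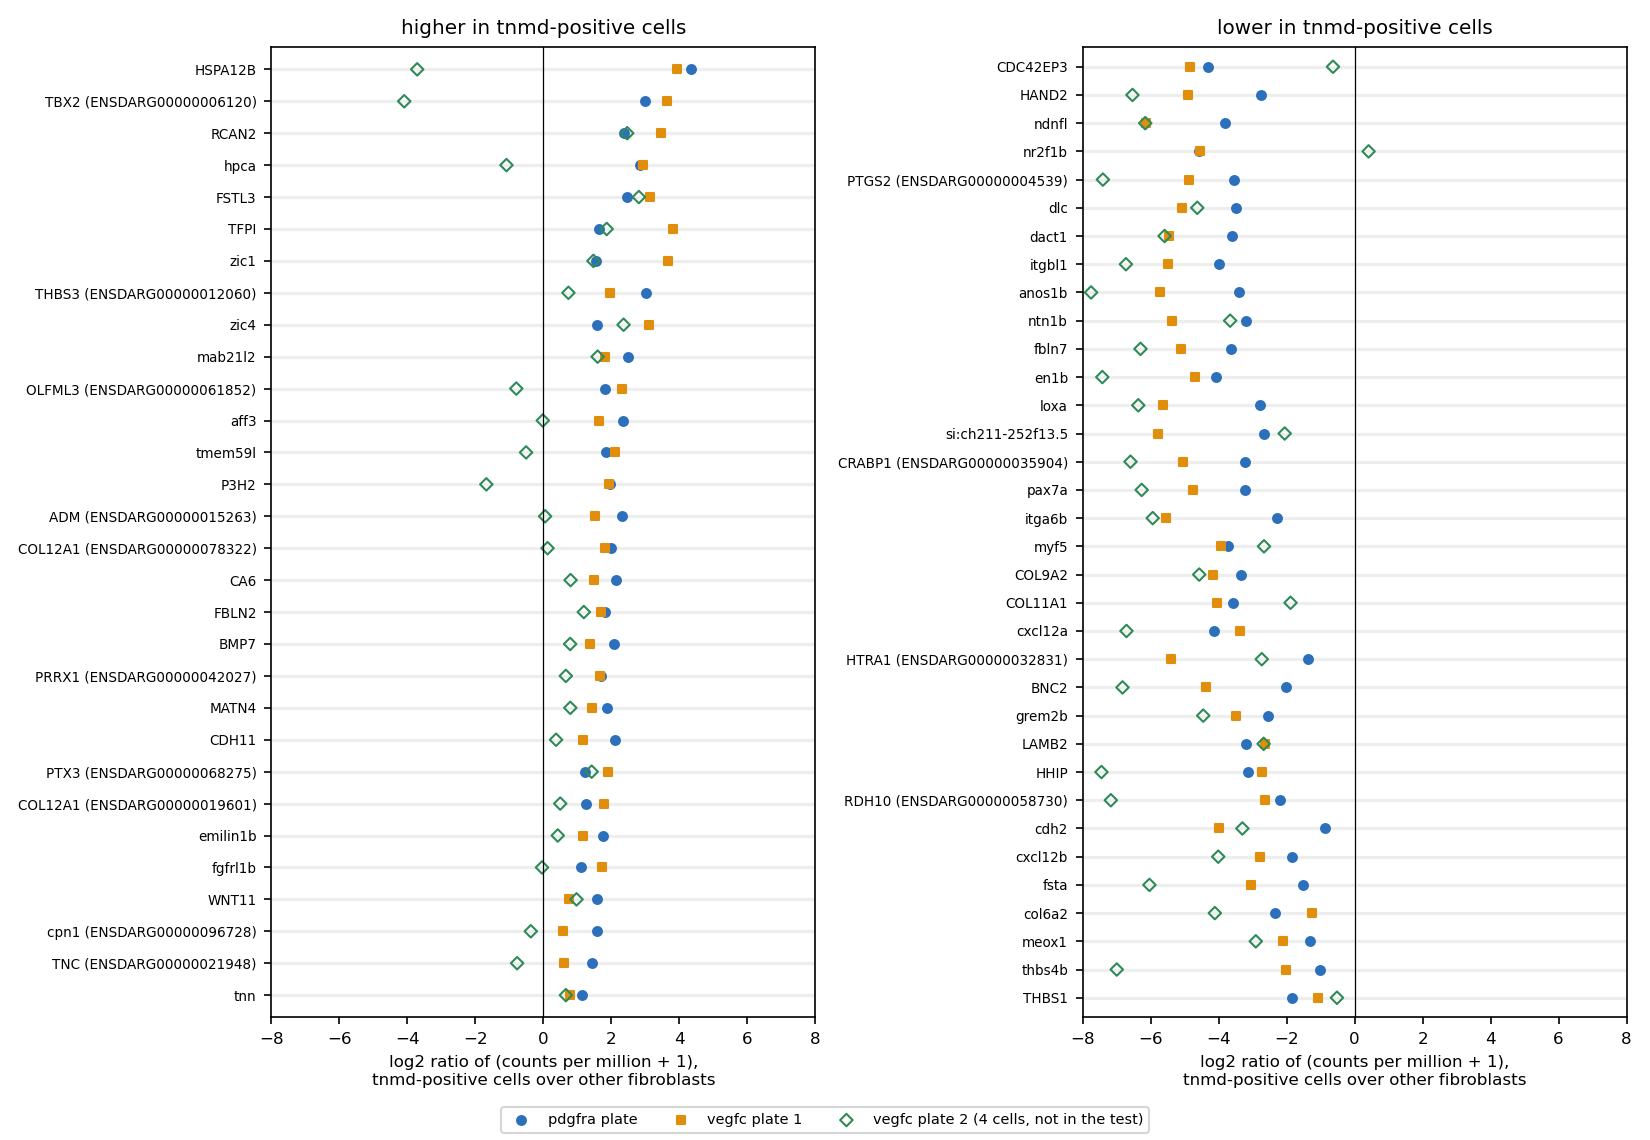
Log2 ratio of (CPM + 1) in tnmd-positive cells over other fibroblasts (x axis) for the named higher and lower genes, with 1 point per plate; vegfc plate 2, with 4 tnmd-positive cells, was not in the test. Higher genes such as zic1, FSTL3 and MATN4 lie right of 0 in every plate, while HSPA12B and TBX2 (ENSDARG00000006120) do not in vegfc plate 2.

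Among 17 chemokine genes tested, 2 were lower in tnmd-positive cells and none higher, beside 0.324% and 0.216% of all genes. The 2 were the cxcl12 paralogs, which also stood in the Vegfc list. cxcl12a, a chemokine gene strongly expressed by en1a-positive fibroblasts, had 17.4, 26.8 and 3.84 CPM in tnmd-positive cells, against 323.6, 286.3 and 507 CPM in other fibroblasts (-3.65 ± 0.54, edgeR adjusted p = 3.33e-08), and did not pass without the en1a-positive cells (adjusted p = 0.731). Its paralog cxcl12b had 7.39, 59.8 and 19.8 CPM, against 28.8, 422 and 334.3 CPM (-2.22 ± 0.57, edgeR adjusted p = 0.0202), and did pass there (adjusted p = 0.0281). VEGFC, the lymphatic growth factor, was at 20 counts in none of the 54 cells and in 16.1% of other fibroblasts. It stood at 2.29, 0 and 6.04 CPM in tnmd-positive cells, against 44.3, 77.7 and 86.1 CPM, and did not pass (-5.93 ± 1.63, edgeR adjusted p = 0.0512). Among these other fibroblasts the en1a-positive cells had far more VEGFC, as given below. In the vegfc plates a vegfc reporter also took part in choosing the cells. CCBE1, which promotes Vegfc processing, was present in 8 tnmd-positive cells and in 24.9% of other fibroblasts (-1.43 ± 0.62, edgeR adjusted p = 0.531). Of 16 genes tested in the Vegfc list, the cxcl12 paralogs were the 2 lower ones and none was higher, beside 0.324% and 0.216% of all genes. Without the en1a-positive cells only 1 gene of this list was lower, cxcl12b, so neither VEGFC nor CCBE1 passed there.

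Against the en1a-positive fibroblasts alone the tnmd-positive cells differed in more genes. Of 14142 genes tested, 79 were higher (0.559%) and 69 lower (0.488%), together 1.05% (edgeR, adjusted p below 0.05), and over 3 plates 27 (0.201%) and 42 (0.312%), together 0.513%. This comparison shares its tnmd-positive sums, and the en1a-positive cells, with the one above. The raised genes were found in a median of 46.3% of tnmd-positive cells and 2.37% of en1a-positive fibroblasts, and the lowered ones in 5.56% and 57.4%.

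Of 46 regulators of sclerotome and mesenchyme tested, 10 were higher and 2 lower, beside 0.559% and 0.488% of all genes. Their median log2 fold change was 0.50, beside -0.22 over all genes. The list holds the label gene mab21l2 and was chosen with earlier results of these data known, so this count is a description. The homeobox genes msx1b, msx2b and msx3, targets of BMP signalling, were at 395, 122.2 and 331.1 CPM (msx1b), 366.7, 266.8 and 258.1 CPM (msx2b) and 443, 94.8 and 0.549 CPM (msx3) in tnmd-positive cells. In en1a-positive fibroblasts they were at 28.6, 1.21 and 0.833 CPM, 28, 3.38 and 0.999 CPM, and 40.1, 1.3 and 1.08 CPM. Their log2 fold changes were 5.03 ± 0.82, 4.87 ± 0.75 and 4.64 ± 0.79 (edgeR adjusted p = 0.00327, 0.00235 and 0.00402), although msx3 was not higher in vegfc plate 2. zic1, zic4 and both PRRX1 genes were higher by 4.03, 3.35, 5.26 (ENSDARG00000042027) and 3.47 (ENSDARG00000033971). GLI2, a transcription factor of the Hedgehog pathway, was higher by 3.48 ± 0.62, and six1b by 3.82 ± 0.79. Against other fibroblasts the msx genes, PRRX1 (ENSDARG00000033971), GLI2 and six1b were not called higher, and 4 of 52 regulators were.

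In the same comparison 5 of 34 BMP genes were higher, all of them ligands, none was lower and 29 were not called, beside 0.559% of all genes called higher. The list had a median log2 fold change of 0.08, against -0.22 over all genes. BMP7 had 399.7, 302.8 and 216.3 CPM in tnmd-positive cells and 18, 3.04 and 25.1 CPM in en1a-positive fibroblasts (5.42 ± 0.71, edgeR adjusted p = 5.86e-04). BMP4 had 269.3, 567 and 388 CPM and 43.4, 37.4 and 150.4 CPM (3.17 ± 0.56, edgeR adjusted p = 0.00558). The remaining raised ligands were BMP2 (ENSDARG00000041430) with 5.59 ± 0.89, BMP5 with 5.31 ± 0.84 and GDF10 (ENSDARG00000095378) with 5.33 ± 0.90. Of these ligands only BMP7 was also higher against other fibroblasts, where 1 of 37 BMP genes was. Matrix genes raised here were MATN4 (5.42 ± 0.36), thbs2b (5.13 ± 0.74), FBLN1 (2.90 ± 0.47), FBLN2 (3.73 ± 0.67) and tnn (1.55 ± 0.27), 5 of 29 on the tendon matrix list, with a list median of -0.38. The chondromodulin gene cnmd was higher by 4.87 ± 0.81. Against other fibroblasts thbs2b, FBLN1 and cnmd were not called higher.

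VEGFC was lower by this comparison, with 2.29, 0 and 6.04 CPM in tnmd-positive cells and 163.2, 254.5 and 238.6 CPM in en1a-positive fibroblasts (-7.62 ± 1.14, edgeR adjusted p = 0.00265). CCBE1 had 67.4, 34.9 and 70.8 CPM and 396, 716 and 619 CPM (-3.55 ± 0.58, edgeR adjusted p = 0.00307). sned1 (-7.68 ± 1.04), ndnfl (-7.29 ± 0.67), itgbl1 (-6.65 ± 0.57), cxcl12a (-5.57 ± 0.48) and meox1 (-2.81 ± 0.44) were lower as well, and en1b (-6.38 ± 0.49) follows from the en1a rule. Of the 10 horizontal myoseptum genes tested, 7 were lower. That list was chosen by the study on these cells and holds en1b, and the rule set the classes apart by en1a. This count is therefore a description and not independent evidence. The same holds for VEGFC, CCBE1, cxcl12a and meox1. In these same cells the study found en1a to overlap with vegfc and ccbe1. It also listed ccbe1, cxcl12a and meox1 beside en1a among the genes enriched in its horizontal myoseptum cluster.

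**Figure D5:**
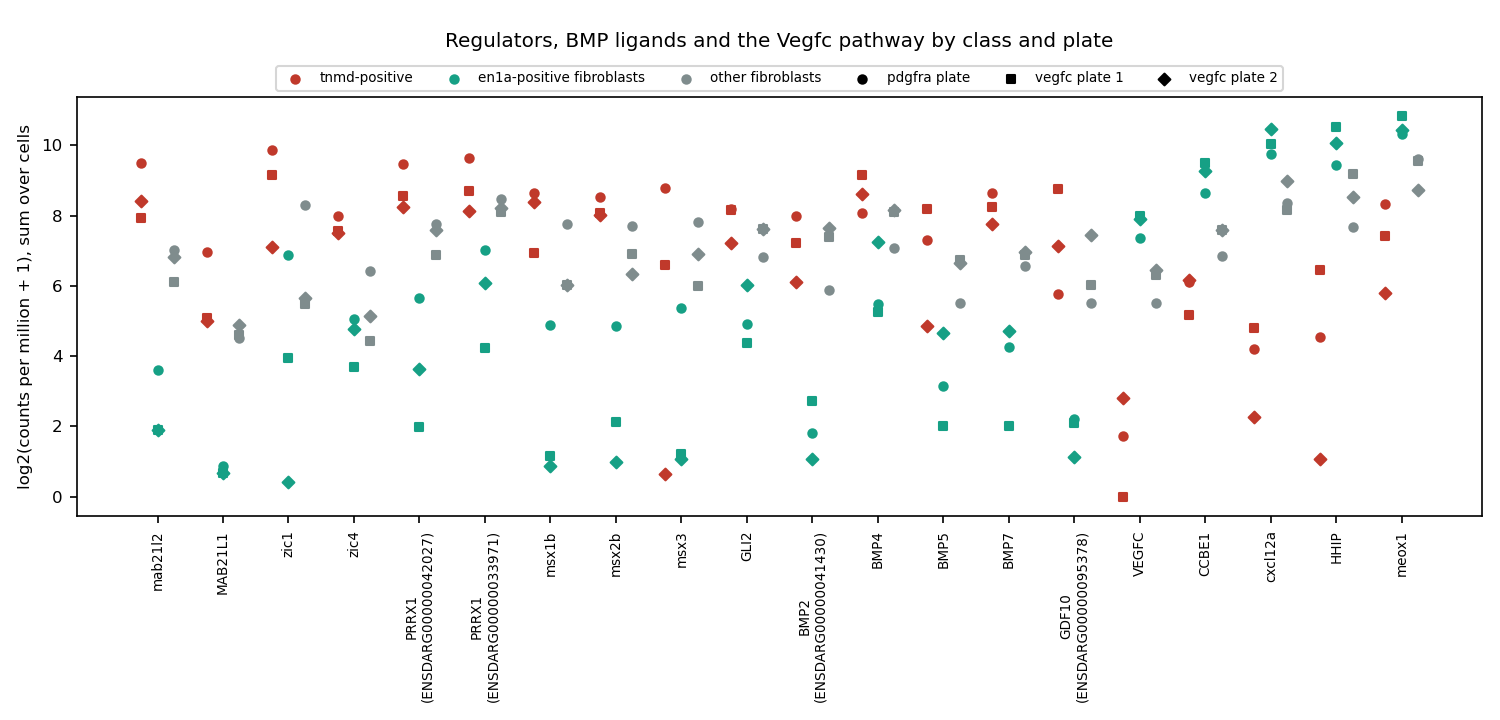
Level of regulators, BMP ligands and Vegfc pathway genes as log2(CPM + 1) of the summed cells, for tnmd-positive cells, other fibroblasts and en1a-positive fibroblasts, with the plate shown by marker. VEGFC is at 0 to 6.04 CPM in tnmd-positive cells, and BMP7 is at 216.3 CPM or more in every plate.

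Whether the difference between tnmd-positive cells and other fibroblasts depended on the line could be fitted only with vegfc plate 2 included. By edgeR no gene passed for the interaction of class and line, and 1.54% of the 17273 genes tested had an unadjusted p below 0.05. This fit too had 1 residual degree of freedom, with 1 plate for the pdgfra line and 4 tnmd-positive cells in vegfc plate 2. The absence of calls therefore does not show that the difference was alike in both lines.

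Markers of other cell types were set beside these results as summed levels. For the muscle list, of which 28 of 30 genes had a count in tnmd-positive cells of the pdgfra plate, the median cell had 289.2, 284.2 and 211.4 CPM in tnmd-positive cells of the 3 plates, against 845, 387 and 294.3 CPM in other fibroblasts. The highest single cells reached 3454 CPM against 17651 CPM in the pdgfra plate. Of 28 muscle genes tested 2 were lower and none higher by edgeR, beside 0.324% and 0.216% of all genes. Their median log2 fold change was -0.39, the same as over all genes. For the fin mesenchyme list the medians were 2306, 943 and 443 CPM in tnmd-positive cells, against 1613, 845 and 661 CPM in other fibroblasts, with a highest cell of 29390 CPM. The actinotrichia gene and1 of that list was at 1607, 50.5 and 601 CPM, against 1966, 375.5 and 378 CPM. Endothelial markers summed to medians of 98.2, 200.1 and 167.2 CPM, against 90.4, 217.2 and 58.7 CPM. Epithelial markers had medians of 5.62, 357.7 and 185.6 CPM in tnmd-positive cells, against 3.57, 259.1 and 19.4 CPM in other fibroblasts. Pooled over the cells of vegfc plate 2 they stood at 2428 against 360.1 CPM, with highest cells of 5959 and 27557 CPM. Perivascular markers had medians of 218.1, 351.8 and 587 CPM in tnmd-positive cells, against 39.1, 336.4 and 589 CPM in other fibroblasts, so they stood apart in the pdgfra plate. Cell cycle markers had medians of 315.6, 2139 and 2559 CPM in tnmd-positive cells, against 1772, 735 and 1166 CPM in other fibroblasts, so the medians were lower in the pdgfra plate and higher in both vegfc plates. Pooled over cells they stood at 1638, 4129 and 2402 CPM, against 3362, 2350 and 3046 CPM, so the order turned round in vegfc plate 2. Cells with 20 counts of mki67 or top2a were 14.3, 12.5 and 0% of tnmd-positive cells, against 27.5, 18.2 and 28.5% of other fibroblasts. The part of these cell types in the results was not tested, whereas leaving out cycling cells gave 23 higher and 43 lower genes.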

How the data were processed

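Single-cell counts were analysed for 1109 trunk cells, 365 in the pdgfra plate, 367 in vegfc plate 1 and 377 in vegfc plate 2; the rule found 54 tnmd-positive cells, 602 other fibroblasts and among these 169 en1a-positive fibroblasts. The authors trimmed reads with trim galore, mapped them to GRCz11 with TopHat2 and Bowtie2, removed doublets with samtools and deposited raw counts per gene from featureCounts; whether strand was used is not given in the sources used here. Of 32151 rows, 92 spike-ins, 2 reporters and the 4 genes of the rule stayed out of the tests. Full-length reads without molecular identifiers mean that counts are not molecules, and CPM compares a gene between cells, not genes with each other.

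Counts were summed per plate and class in plates with at least 5 cells of both classes and tested in R 4.3.3 with edgeR 4.0.16 (filterByExpr, TMM, robust quasi-likelihood, plate as block, Benjamini-Hochberg adjustment). limma 3.58.1 and DESeq2 1.42.0 were alternatives, the first on mean log2(CPM + 1) per cell. The edgeR step was checked on simulated counts. Neighbours used 50 principal components of log CPM centred per plate (scikit-learn 1.9.0). Alternative rules used 10 or 50 counts.

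Gene lists, members and label genes were chosen with earlier results of these data known. Named were the label genes, up to 4 called genes per list and direction on the same side in both plates, and outside the lists the 15 most raised and 8 most lowered with at least 20 CPM. Genes of the regulatory, BMP, Vegfc and SCX descriptions beyond this rule were chosen after their values were seen. The gene annotation at hand is of another build, so no coordinates are given. A gene named by this rule is not reported here or drawn.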

Additional observations from a re-analysis of the deposited data

Results flagged for a closer look

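Among 11 groups of 4 to 10 tnmd-positive cells examined for a value far from the rest, 7 had a cell whose level stood apart by Dixon's criterion, which chance meets in about 1 in 20 groups of normally distributed values. Most of these groups hold mainly values at or near 0, and TNMD was cut off by the rule, so the number of such groups is no measure of how unusual they are. In vegfc plate 1 (8 cells) the highest cell had 397.1 CPM of mmp11b with the next at 0 CPM, the highest had 841 CPM of TNMD with the next at 457 CPM, and the highest had 1169 CPM of ccl25b with the next at 195.04 CPM. In vegfc plate 2 (4 cells) the highest cell had 359.952 CPM of mmp11b with the next at 0 CPM, 564.5 CPM of slco2b1 with the next at 6.15 CPM, 372.3 CPM of cndp1 with the next at 1.39 CPM, and 2206 CPM of ccl25b with the next at 5.56 CPM. The plate level of mmp11b in both vegfc plates, and of slco2b1, cndp1 and ccl25b in vegfc plate 2, thus came almost wholly from 1 cell.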

How the results depend on the processing

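Against other fibroblasts, 95 genes were called, 0.54% of those tested. Called were 0 (0%) with no replicate block (1171 genes at an unadjusted p below 0.05), 52 (0.305%) with a rule of 50 counts, 37 (0.21%) with limma, 36 (0.216%) without en1a-positive comparison cells, and 26 (0.171%) with comparison cells that had both pdgfra and lum. With vegfc plate 2 added, a choice made after seeing the data, it was 14 (0.0811%) with edgeR, 915 (5.3%) with DESeq2, and 0 without en1a-positive comparison cells (1112 at an unadjusted p below 0.05). Leaving out each of the 3 plates gave 0.174% to 0.54%, with 30 genes without the pdgfra plate, 49 (0.277%) without vegfc plate 1 and 95 without vegfc plate 2. The last of these is the main fit itself and no further check. With DESeq2, RLE size factors, no filter, a rule of 10 counts or on scaled counts, without cycling cells, or without SCX-positive or non-fibroblast tnmd-positive cells it was 0.337% to 0.784%, but the DESeq2 set shared only 5 higher and 27 lower genes with edgeR.

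Against en1a-positive fibroblasts, 79 higher and 69 lower genes were called, 1.05% of those tested. The share was 4.24% by DESeq2 (600 genes), 1.04% of the 22686 genes tested with no filter on low counts, which is a larger number of genes, 1.68% by limma and 0.0141% (2 genes) with no replicate block. With vegfc plate 2 it was 0.513% (69 genes), or 8.26% by DESeq2 (1111 genes), and 0.296% to 1.05% with each plate left out in turn, lowest without vegfc plate 1 (42 genes). The 1.05%, without vegfc plate 2, is again the main fit itself. The plate number is the replicate block in every other fit, since both classes of a plate shared a line and a library preparation. The causes of these shifts were not tested.

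Of 65 called genes that are named, 62 kept their direction in every fit. In the fit of 3 plates with the pdgfra plate left out, TBX2 (ENSDARG00000006120) had a log2 fold change of -0.45, TNC (ENSDARG00000021948) -0.0888, HSPA12B -0.31 and the label gene cndp1 -0.00354, and with vegfc plate 1 left out TBX2 (ENSDARG00000006120) had -0.63. The uncalled cndp1 was -0.084 with a rule of 50 counts, -0.0086 without en1a-positive comparison cells, -0.47 with both genes required and -0.12 without cycling cells. The share of tnmd-positive cells was 3.97 to 4.78% under other rules. Levels in vegfc plate 1 and vegfc plate 2 rest on 8 and 4 tnmd-positive cells, which limits what a 0 there can show.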

Other observations

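COL9A1, a collagen IX chain best known from cartilage, was singled out after its values were seen. It reached 20 counts in 4 tnmd-positive cells spread over all 3 plates (7.41%, 2.06 to 17.9%, Clopper-Pearson) and in 1 of 602 other fibroblasts (0.166%). Its level was 40.3, 29 and 198.8 CPM in tnmd-positive cells of the pdgfra plate, vegfc plate 1 and vegfc plate 2, against 1.31, 0.166 and 0.217 CPM in other fibroblasts, and the log2 fold change did not pass (6.31 ± 2.15, edgeR adjusted p = 0.349). The summed cartilage markers had medians of 1643, 1954 and 1051 CPM in tnmd-positive cells, against 1514, 1772 and 1108 CPM in other fibroblasts, which does not show single genes. By edgeR none of 17 cartilage genes tested was higher against other fibroblasts and 1 was lower, beside 0.216% and 0.324% of all genes. Against en1a-positive fibroblasts 2 of 14 were higher and 1 lower, beside 0.559% and 0.488%.

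The 5 tnmd-positive cells with under 20 counts of both pdgfra and lum were not alike. The 3 in the pdgfra plate had 1461, 1547 and 1842 CPM of tnmd together with 503, 3018 and 2555 CPM of SCX and 16715, 17509 and 15003 CPM of col1a1a. Of the 2 in vegfc plate 2, one cell had 70.8 CPM of tnmd at a depth of 719948 counts but 16.7 CPM of col1a1a and 27.8 CPM of COL1A2, and the other had 487 CPM of tnmd with 11908 CPM of col1a1a and 34.4 CPM of COL1A2. Only the 3 cells of the pdgfra plate were in the test against other fibroblasts, and leaving them out gave 39 higher and 61 lower genes. Together these were 0.569% of the 17569 genes tested. The 2 cells of vegfc plate 2 were not in that test, so it does not show their part.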
